A study of Mus musculus with 8 samples.

Results

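The effect of GW4064 on the mouse liver transcriptome was estimated across both genotype labels of the study at the same time. Of the 8 deposited arrays, 7 held usable signals and formed the comparison: 4 from mice given GW4064 and 3 from mice given vehicle. The groups were Fxr-/- with GW4064 (2 arrays), Fxr-/- with vehicle (1 array), Fxr+/+ with GW4064 (2 arrays) and Fxr+/+ with vehicle (2 arrays). All mice were males aged 10 to 12 weeks, and received by gavage either 30 mg/kg GW4064 or vehicle, given 2 times daily over 7 days. An array stands for a pool of liver RNA from 3 to 4 animals, not for an animal. The sources used here do not say how Fxr was disrupted or on which strain background. A gene was said to move alike when it passed the test for treatment with genotype as a covariate, and when, under each genotype label, its GW4064 arrays all lay on the same side of its vehicle arrays.

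GW4064 is a man-made ligand that activates FXR, the farnesoid X receptor, which is the nuclear receptor sensing bile acids and is encoded by Nr1h4. In liver, activated FXR is known to lower the transcription of Cyp7a1 and Cyp8b1, which make bile acids from cholesterol, in part through the repressor Nr0b2 (SHP) and through intestinal Fgf15. It is also known to raise the transcription of bile acid exporters such as Abcb11 at the canalicular membrane and the Slc51a-Slc51b pair at the basolateral membrane. FXR binds as a heterodimer with RXR, typically at an inverted repeat of 2 hexamers separated by 1 base, and NRF2, the main activator of glutathione and antioxidant genes, binds an antioxidant response element whose core reads TGACNNNGC.

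The promoters of genes that carry the comparison are printed here, since the induced exporters and glutathione genes are those for which such elements are known. The inverted repeat was searched as AGGTCA, any 1 base, then TGACCT, on both strands and allowing 2 of the hexamer letters to differ, and the antioxidant core as TGACNNNGC on both strands. Both patterns contain TGAC, so that matches to them can overlap. Among 32851 mouse promoters of 300 bases (250 before the start and 50 after), 374 (1.14%) held the inverted repeat and 4071 (12.4%) held the antioxidant core. Of the 7 genes that moved alike, 5 had a promoter in the RefSeq table (build GRCm38.p6), and 0 of these 5 held the inverted repeat. The 250 bases before the start are printed 5′ to 3′ for Slc51b (chr9:65422774-65423023, minus strand) and Gstm3 (chr3:107969175-107969424, minus strand), which held neither pattern. Amn (chr12:111270846-111271095, plus strand) was added because it held the antioxidant core on the opposite strand, beginning 33 bases before the start and written in capitals. The promoter of Cyp8b1, a gene lower with GW4064 that did not pass the test for treatment, was also searched and is not printed. It held the antioxidant core as well, beginning 151 bases before the start, and no inverted repeat. Abcb11 (chr2:69342617-69342866, minus strand) did not pass the test for treatment and was added after its match was seen, as the exporter gene with an inverted repeat, 1 letter different, beginning 63 bases before the start and in capitals. A match describes letters only, and a missing match says only that the letters are not in this window.
Slc51b: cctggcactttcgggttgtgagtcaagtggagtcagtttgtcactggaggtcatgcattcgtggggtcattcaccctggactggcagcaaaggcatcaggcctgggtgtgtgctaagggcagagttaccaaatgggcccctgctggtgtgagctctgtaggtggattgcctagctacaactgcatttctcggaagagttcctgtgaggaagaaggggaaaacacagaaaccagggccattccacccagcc
Gstm3: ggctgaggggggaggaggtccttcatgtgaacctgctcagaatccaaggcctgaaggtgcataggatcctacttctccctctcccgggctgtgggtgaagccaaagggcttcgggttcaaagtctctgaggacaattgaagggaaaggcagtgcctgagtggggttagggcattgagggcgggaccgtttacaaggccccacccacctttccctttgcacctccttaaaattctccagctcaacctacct
Amn: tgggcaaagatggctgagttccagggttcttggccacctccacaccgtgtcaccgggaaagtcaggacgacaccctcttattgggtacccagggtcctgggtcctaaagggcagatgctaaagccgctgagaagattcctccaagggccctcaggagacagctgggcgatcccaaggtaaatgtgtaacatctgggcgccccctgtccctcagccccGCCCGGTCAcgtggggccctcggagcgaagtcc
Abcb11: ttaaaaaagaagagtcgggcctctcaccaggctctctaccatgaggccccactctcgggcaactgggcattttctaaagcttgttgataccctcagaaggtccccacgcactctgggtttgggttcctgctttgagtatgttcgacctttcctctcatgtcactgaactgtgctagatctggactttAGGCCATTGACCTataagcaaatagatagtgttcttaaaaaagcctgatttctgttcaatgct

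Signals were background-subtracted intensities in arbitrary units, and the 7 arrays had nearly identical distributions, with medians between 24.0 and 24.2. Spearman correlations between arrays over all probes were 0.965 to 0.969 within a group, 0.945 to 0.969 between GW4064 and vehicle arrays of the same label, and 0.935 to 0.956 across genotype labels. The range between treatments thus overlapped that within a group. The array labelled Fxr-/- vehicle replicate 2 stood apart, with whole numbers between 14 and 139 whose highest correlation with another array was 0.0559, and entered no fit. The liver label was checked with hepatocyte markers: Ttr read 15405.9 to 31462.3 and Apoa1 27880.6 to 32516.3 over the 7 arrays, whereas the probe of Alb, albumin, read 81.6 to 168.7. The probe of Fgb, another hepatocyte marker, read -4.6 to 26.8, all within the range of the background. Nr1h4 itself read 2048.3 and 1851.9 on the Fxr-/- GW4064 arrays and 3271.6 on the Fxr-/- vehicle array, against 3327.7 and 3483.0 on the Fxr+/+ GW4064 arrays and 3958.8 and 4411.4 on the Fxr+/+ vehicle arrays. It was therefore lower on the arrays labelled Fxr-/-, by a log2 difference of -0.62 adjusted for treatment (limma adjusted p = 0.021), and remained well detected there. The sources used here do not place its probe inside or outside the deleted stretch, so this level does not check the genotype labels, and Fxr-/- and Fxr+/+ are used throughout as the labels of the arrays.

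With genotype as a covariate, 7 of 9766 genes passed an adjusted p of 0.05 for GW4064 against vehicle. Of these, 6 rose (Slc51b, Gstm3, Gpx2, Wfdc3, Amn and Ppl), which is 0.0614% of the genes tested, and Cyp7a1 fell, which is 0.0102%. All 7 moved alike, so that 0 genes passed the test without moving to the same side under both labels. The choice by p favours such a side, so that this agreement is not separate evidence. Without regard to the test, GW4064 and vehicle arrays lay apart under both labels in the same direction for 676 genes higher (6.92%) and 720 genes lower (7.37%) with GW4064. Before adjustment, 771 genes had a p under 0.05, against 488 that this level gives on average when no gene changes, with 395 higher and 376 lower. The median change of all genes was 0.0038 on the log2 scale. All log2 changes are differences of log2(signal + 16), with negative signals set to 0, and understate the change of dim genes. P-values are two-sided, from limma with Benjamini-Hochberg adjustment over the 9766 genes, and measure the spread between pools.

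Cyp7a1, on chromosome 4, encodes the rate-limiting enzyme of the classic pathway of bile acid synthesis and gave the smallest p of all genes. Its signal was 805.0 and 613.3 on the Fxr-/- GW4064 arrays, against 3846.3 on the Fxr-/- vehicle array. It was 984.4 and 1001.8 on the Fxr+/+ GW4064 arrays, against 7143.5 and 4933.9 on the Fxr+/+ vehicle arrays. Every GW4064 array thus lay below every vehicle array, whatever its label. The adjusted log2 change was -2.51 with a standard error of 0.179, or 0.176 times the vehicle level (limma adjusted p = 0.0049). The separate estimates were -2.43 under the label Fxr-/- and -2.56 under Fxr+/+, and their difference of 0.13 had a 95% interval from -0.77 to 1.04. Without the array Fxr+/+ GW4064 replicate 1 the adjusted p was 0.0516, and with any other array left out it was between 0.0118 and 0.0447.

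Slc51b, on chromosome 9, encodes the beta subunit of the basolateral organic solute transporter that exports bile acids. Its signal was 880.6 and 956.9 on the Fxr-/- GW4064 arrays, against 30.8 on the Fxr-/- vehicle array, which lies within the range of the background. It was 719.0 and 294.7 on the Fxr+/+ GW4064 arrays, against 50.8 and 53.7 on the Fxr+/+ vehicle arrays. The groups did not overlap under either label, although the Fxr+/+ GW4064 pools differed from each other more than those of any other group. The adjusted log2 change was 3.41 with a standard error of 0.373 (limma adjusted p = 0.0241), a fitted value that ran from 2.32 to 3.87 over the alternatives. Under the label Fxr-/- the geometric mean signal with GW4064 was at least 23.2-fold higher than with vehicle. The log2 estimates were 4.32 under Fxr-/- and 2.81 under Fxr+/+. The 95% interval of their difference ran from 0.16 to 2.86, and its adjusted p over all genes was 0.757. The probe of its partner Slc51a read 7.0 to 38.0 on the 7 arrays, all within the range of the background, so that no fold is given for it. With the replicate number as a block, the adjusted p of Slc51b was 0.061.

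Both glutathione genes that rose were dim under vehicle. Gstm3, on chromosome 3, encodes a mu-class glutathione S-transferase, which conjugates electrophiles to glutathione. Its signal was 194.9 and 171.1 on the Fxr-/- GW4064 arrays, against 0.9 on the Fxr-/- vehicle array. It was 169.2 and 119.6 on the Fxr+/+ GW4064 arrays, against 27.8 and 18.1 on the Fxr+/+ vehicle arrays. All vehicle signals of Gstm3 lay within the range of the background. The geometric means of the GW4064 signals were at least 4.62-fold higher under Fxr-/- and at least 3.60-fold higher under Fxr+/+. Of the vehicle signals only that of 27.8 lay above its array's median, so that Gstm3 entered the test through its GW4064 arrays. Its adjusted log2 change was 2.64 with a standard error of 0.31 (limma adjusted p = 0.0323, and 0.0662 with the replicate number as a block), and this fitted value ran from 1.19 to 4.2 over the alternatives. The difference between its estimates under the labels, 1.52 with a 95% interval from 0.65 to 2.39, had an adjusted p of 0.559.

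Gpx2, on chromosome 12, encodes a glutathione peroxidase best known from the gut lining, which reduces hydroperoxides. Its signal was 89.4 and 131.8 on the Fxr-/- GW4064 arrays, against 1.9 on the Fxr-/- vehicle array. It was 176.7 and 216.6 on the Fxr+/+ GW4064 arrays, against 33.4 and 51.7 on the Fxr+/+ vehicle arrays. The GW4064 arrays lay above the vehicle arrays under each label. Under Fxr-/- the geometric mean with GW4064 was at least 2.75-fold higher. Since its Fxr-/- vehicle signal lay within the range of the background, the fitted log2 change of 2.24, with a standard error of 0.245 (limma adjusted p = 0.0241), depended on the offset and ran from 1.05 to 3.42 over the alternatives.

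The other rises were in genes outside bile acid and glutathione metabolism, and Amn and Wfdc3 also differed strongly between the labels. Amn, on chromosome 12, encodes amnionless, the membrane partner of cubilin in the receptor that takes up the intrinsic factor complex of vitamin B12. It read 110.4 and 125.8 on the Fxr-/- GW4064 arrays and 20.4 on the Fxr-/- vehicle array. It read 716.1 and 541.9 on the Fxr+/+ GW4064 arrays, against 203.9 and 175.9 on the Fxr+/+ vehicle arrays. Its GW4064 arrays under Fxr-/- thus lay below its vehicle arrays under Fxr+/+, and the rise showed only within a label. The Fxr-/- vehicle signal lay within the range of the background, so that under Fxr-/- only a bound can be given. There the geometric mean was at least 2.98-fold higher with GW4064. The fitted log2 change of Amn was 1.73 with a standard error of 0.16 (limma adjusted p = 0.0182) and ran from 1.14 to 2.02 over the alternatives. The fitted difference between labels, -2.35 (Fxr-/- minus Fxr+/+, adjusted p = 4.79e-05), rests in part on the same dim array.

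Wfdc3, on chromosome 2, encodes a WAP four-disulfide core protein, of a family that includes protease inhibitors. It read 2527.2 and 3712.6 on the Fxr-/- GW4064 arrays, against 573.3 on the Fxr-/- vehicle array. It read 163.6 and 191.1 on the Fxr+/+ GW4064 arrays, against 40.5 and 44.1 on the Fxr+/+ vehicle arrays. Here the order of the labels was opposite to that of Amn, with a log2 difference of 3.73 (Fxr-/- minus Fxr+/+, adjusted p = 1.69e-05), and the GW4064 arrays were again higher under each label. The adjusted change with GW4064 was 1.99 on the log2 scale with a standard error of 0.204, or 3.97-fold (limma adjusted p = 0.0241), and with an offset of 100 it was 1.47 with an adjusted p of 0.0634. For the genotype label, 12.8% of the genes tested passed as lower and 11.2% as higher in Fxr-/-, far more than passed for GW4064 in the same fit.

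Ppl, on chromosome 16, encodes periplakin, which links desmosomes to intermediate filaments. It read 633.2 and 511.8 on the Fxr-/- GW4064 arrays, against 136.2 on the Fxr-/- vehicle array. It read 534.9 and 376.5 on the Fxr+/+ GW4064 arrays, against 157.6 and 138.7 on the Fxr+/+ vehicle arrays. The GW4064 arrays were above all vehicle arrays, and the log2 change was 1.68 with a standard error of 0.186, or 3.20-fold (limma adjusted p = 0.0241). A dimmer probe of Ppl, between 83.3 and 120.7 on the 7 arrays, had log2 changes of 0.11 under Fxr-/- and 0.089 under Fxr+/+, and with the mean of the gene's probes the change was 0.89 with an adjusted p of 0.0994.

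**Figure D1:**
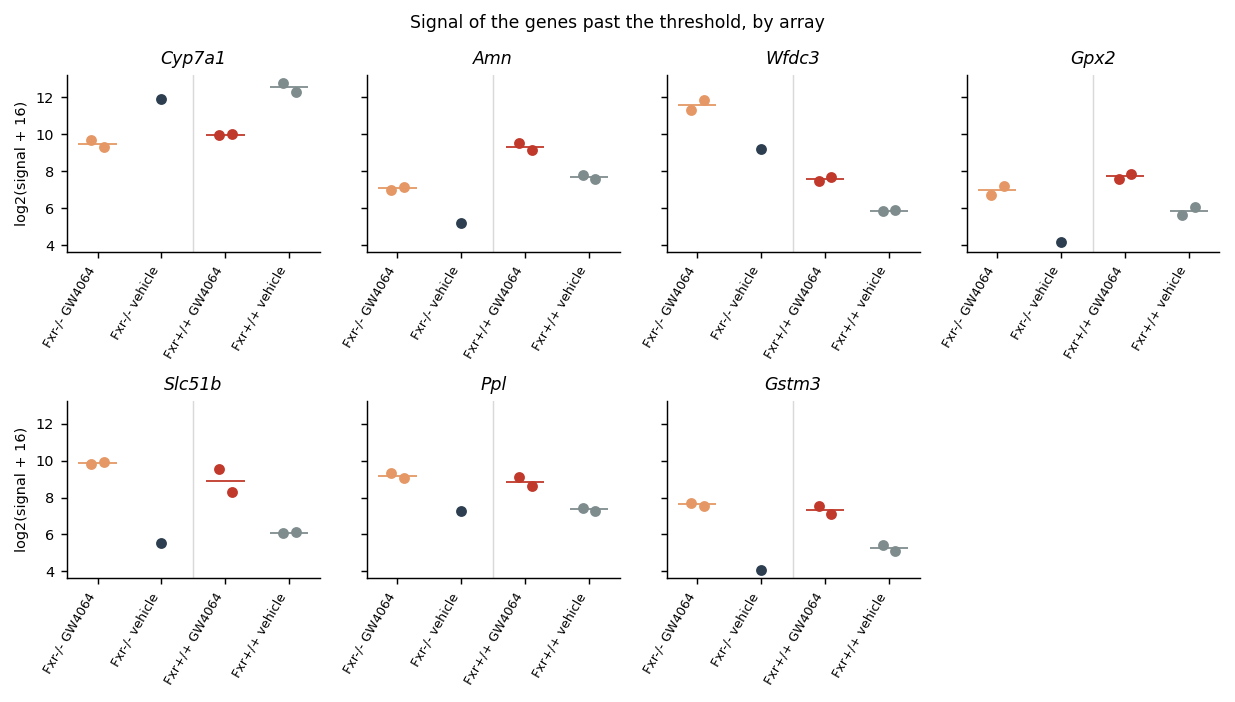
Signal of the 7 genes past the threshold on each array, as log2(signal + 16), for Fxr-/- GW4064 (2 arrays), Fxr-/- vehicle (1), Fxr+/+ GW4064 (2) and Fxr+/+ vehicle (2). Points are arrays and lines are means of 2 arrays. Cyp7a1 is lower and the other genes are higher with GW4064 on both sides of the grey line.

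The calls of the 6 rises were lost more often than that of Cyp7a1 when an array was left out. Each kept its call in 1 of the 7 fits that left out an array: Amn, Slc51b, Ppl and Gstm3 without Fxr+/+ GW4064 replicate 2, Wfdc3 without Fxr-/- GW4064 replicate 2, and Gpx2 without Fxr+/+ vehicle replicate 2. In the other 6 fits of each gene the adjusted p lay between 0.0517 and 0.22, while the log2 changes of the 6 genes over all left-out arrays stayed above 0, from 1.5 for Ppl to 3.87 for Slc51b. With the replicate number as a block, 5 genes passed as higher and 1 as lower.

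Just outside the threshold, the next 15 genes by p had adjusted p from 0.0616 to 0.113 and were named after their values were seen. Among them 12 were higher and 3 lower with GW4064, and for all 15 the arrays lay apart on the same side under both labels, a side that the choice by p favours. The nearest was Tmem141, a transmembrane protein gene, which read 2055.6 and 3535.5 on the Fxr-/- GW4064 arrays, 532.7 on the Fxr-/- vehicle array, 2080.3 and 1349.0 on the Fxr+/+ GW4064 arrays, and 364.0 and 565.7 on the Fxr+/+ vehicle arrays. Its log2 change was 2.03 (limma adjusted p = 0.0616). Obp2a, which encodes a lipocalin that binds odorants, had a log2 change of 1.63 with the same adjusted p. Ptgds, the lipocalin-type prostaglandin D synthase, had a change of 1.77 (adjusted p = 0.0921), and Mfge8, a secreted protein that bridges dying cells to phagocytes, one of 0.96 (adjusted p = 0.0965). A second probe of Mfge8 gave 1.07 under Fxr-/- and 0.92 under Fxr+/+. The group also held the alpha-class glutathione S-transferases Gsta4 (1.15) and Gsta1 (1.19), the kinase Dyrk3 (1.08), the antimicrobial peptide Defb1 (1.45), the RNA-binding protein Igf2bp3 (1.22), the neuropeptide Npb (1.19), the hexokinase-related Hkdc1 and the sugar phosphate carrier Slc37a1, each with an adjusted p of 0.111. No change is given for Slc37a1, whose signals of -1.0 to 27.8 all lay within the range of the background, or for Hkdc1, whose Fxr+/+ signals did. Vehicle signals of Igf2bp3 under both labels, of Ptgds under Fxr-/- and of Defb1 under Fxr+/+, and the GW4064 signals of Cela2a, also lay within that range, so that their fitted changes depend on the offset. A second probe of Igf2bp3 gave 1.87 under Fxr+/+ and 0.48 under Fxr-/-. Its Fxr-/- signals, -8.3 with vehicle and -4.7 and 15.2 with GW4064, all lay within that range. The lower ones were the elastase Cela2a (-1.14), the F-box protein Fbxo21 (-0.95) and Csad (-1.12). None of these 15 values passed the test.

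The test of the difference between the labels passed for 0% of the genes, that is 0 of 9766 in limma, with 600 genes at an unadjusted p under 0.05. It compares 4 arrays with 3, so that a missing call does not show equal effects. The smallest p-values of this difference belonged to Cyp2b9, Cyp2b13, Synm, Etv4 and Cyp8b1, with adjusted p from 0.305 to 0.324. Tested within a label, 7 genes passed under Fxr-/- (0.0717%), where the vehicle group is 1 array, and 2 under Fxr+/+ (0.0205%). With an array left out, 1 to 3 passed under Fxr-/- and 0 to 1 under Fxr+/+, and fits on the arrays of a single label gave 0 for each. Under Fxr+/+ these were Cyp7a1 and Cyp2b13, and under Fxr-/- they were Cyp8b1, Gstm3, Slc51b, Gpx2, Synm, Etv4 and Mfap2. The Fxr-/- vehicle signals of Synm (18.8) and Etv4 (9.7) lay within the range of the background. Etv4 lay above the array median only on its Fxr-/- GW4064 arrays (102.7 and 86.5). For the tested probe of Synm, only Fxr+/+ vehicle replicate 1 (33.3) did so besides its Fxr-/- GW4064 arrays (221.4 and 380.0). Both thus entered the tests through the group in which they were called higher. The Fxr-/- GW4064 signals of Mfap2 (15.7 and 10.7) lay within the range of the background. Other kept probes of Synm gave log2 changes of 1.26 and 0.023 under Fxr-/-. Dim probes of Mfap2 that were not kept, with signals of at most 11.6, gave 0 and -0.53 there. Of the genes called within a label, Cyp2b13, Cyp8b1, Synm, Etv4 and Mfap2 passed within a single label and not in the comparison across labels. With the replicate number as a block these counts were 3 under Fxr-/- and 5 under Fxr+/+.

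Cyp8b1, the 12-alpha-hydroxylase needed to make cholic acid, had the most negative adjusted estimate of the bile acid genes but did not pass. It read 92.4 and 30.6 on the Fxr-/- GW4064 arrays, against 3164.4 on the Fxr-/- vehicle array. It read 6484.3 and 6307.2 on the Fxr+/+ GW4064 arrays, against 17829.3 and 20338.2 on the Fxr+/+ vehicle arrays. The GW4064 arrays were below the vehicle arrays under each label. Under Fxr-/- the GW4064 signal of 30.6 lay within the range of the background, and the vehicle group is 1 array. The size of the change there, and of the difference between the labels, therefore depends on the offset. The log2 change was -5.48 under Fxr-/- (adjusted p = 0.0138) and -1.57 under Fxr+/+ (adjusted p = 0.622). The single adjusted estimate was -3.14 with a standard error of 0.719 (limma adjusted p = 0.315). The difference of -3.91 between the labels had a 95% interval from -5.25 to -2.57 and an adjusted p of 0.324.

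**Figure D2:**
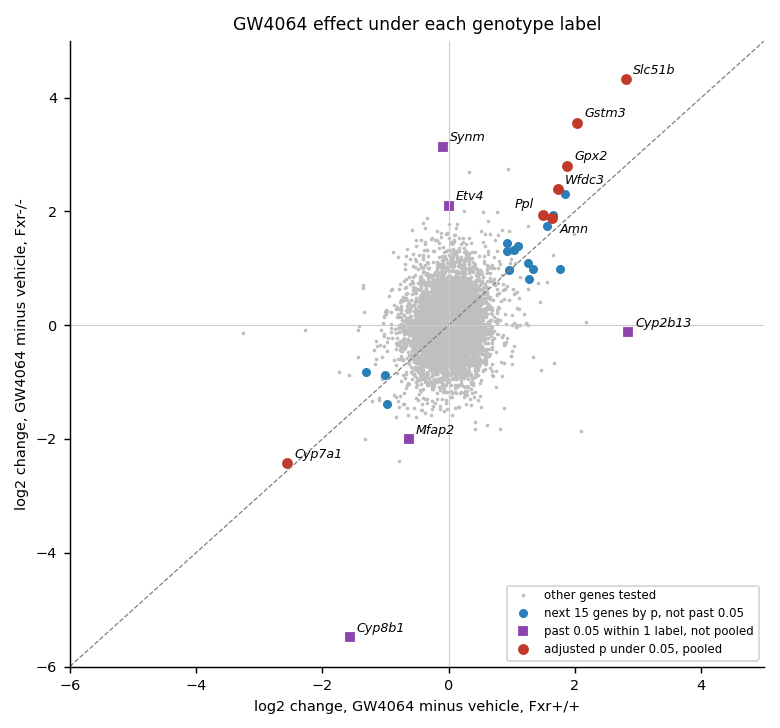
Log2 change with GW4064 against vehicle under Fxr+/+ (horizontal axis) and Fxr-/- (vertical axis) for the 9766 genes tested, with the line of equal change dashed. The 7 genes past the threshold lie in the upper right or lower left corner, from Slc51b at 4.32 under Fxr-/- and 2.81 under Fxr+/+ to Cyp7a1 at -2.43 and -2.56 in the same order, whereas Cyp2b13, Synm and Etv4 lie near an axis.

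Among the other genes of bile acid synthesis, 16 of 17 listed members were tested, with 0 passing as higher and 1, Cyp7a1, as lower. The median log2 change was -0.12, and 2 members (12.5%) were apart as higher and 5 (31.2%) as lower under both labels, against 6.92% and 7.37% of all genes. Cyp7b1 and Cyp27a1, enzymes of the alternative pathway, had changes of -0.83 (adjusted p = 0.427) and -0.16 (adjusted p = 0.888). For the conjugating enzymes Baat and Slc27a5 the genotype label gave the larger estimate: Baat had -0.33 for GW4064 (adjusted p = 0.799) and -3.55 for Fxr-/- minus Fxr+/+, and Slc27a5 had -0.46 (adjusted p = 0.802) and -3.35. Csad makes taurine, with which mouse bile acids are conjugated. It read 1491.6 and 1894.6 on the Fxr-/- GW4064 arrays, against 2971.2 on the Fxr-/- vehicle array, and 2673.1 and 2214.3 on the Fxr+/+ GW4064 arrays, against 6738.4 and 5478.0 on the Fxr+/+ vehicle arrays. These groups did not overlap under either label, and the change of -1.12 missed the threshold at an adjusted p of 0.113.

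Of the exporters of bile acids, phospholipids and sterols, 9 of 12 were tested, 1 passed as higher (Slc51b) and 0 as lower, with a median log2 change of 0.25. In this list 4 members, Slc51b, Abcb11, Atp8b1 and Abcg5, were apart as higher under both labels, or 44.4% of those tested, against 6.92% of all genes. The background-level Slc51a was apart as lower, or 11.1% of those tested, against 7.37% of all genes. Abcb11, the bile salt export pump whose inverted repeat is printed above, read 5159.9 and 7317.7 on the Fxr-/- GW4064 arrays, against 2003.2 on the Fxr-/- vehicle array. It read 2719.3 and 2511.0 on the Fxr+/+ GW4064 arrays, against 1728.8 and 1790.3 on the Fxr+/+ vehicle arrays. The GW4064 arrays were higher under each label, with log2 changes of 1.61 under Fxr-/- and 0.57 under Fxr+/+. The adjusted change of 0.98 had a standard error of 0.24 and did not pass (limma adjusted p = 0.327), and the difference of 1.04 between the labels had a 95% interval from 0.23 to 1.86 and an adjusted p of 0.674. Abcg5 and Abcg8, which form the sterol exporter, had changes of 0.40 and 0.25, the phospholipid flippase Atp8b1 had 0.40, and the phosphatidylcholine exporter Abcb4 and the conjugate exporter Abcc2 had 0.019 and -0.012. The uptake carrier Slc10a1 had -0.59 (adjusted p = 0.575), in a list of 5 tested uptake carriers with a median of -0.17 and 0 calls. Among 18 further FXR targets tested, 0 passed and the median was 0.029. Under both labels 2 (11.1%) of them were apart as higher and 0 as lower, against 6.92% and 7.37% of all genes. The 2 were Scarb1, the HDL receptor (0.90, adjusted p = 0.194), and Mafg, a small Maf repressor (0.62, adjusted p = 0.447). Nr0b2 had probe signals from -25.3 to -5.1 on the 7 arrays and did not enter the test.

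**Figure D3:**
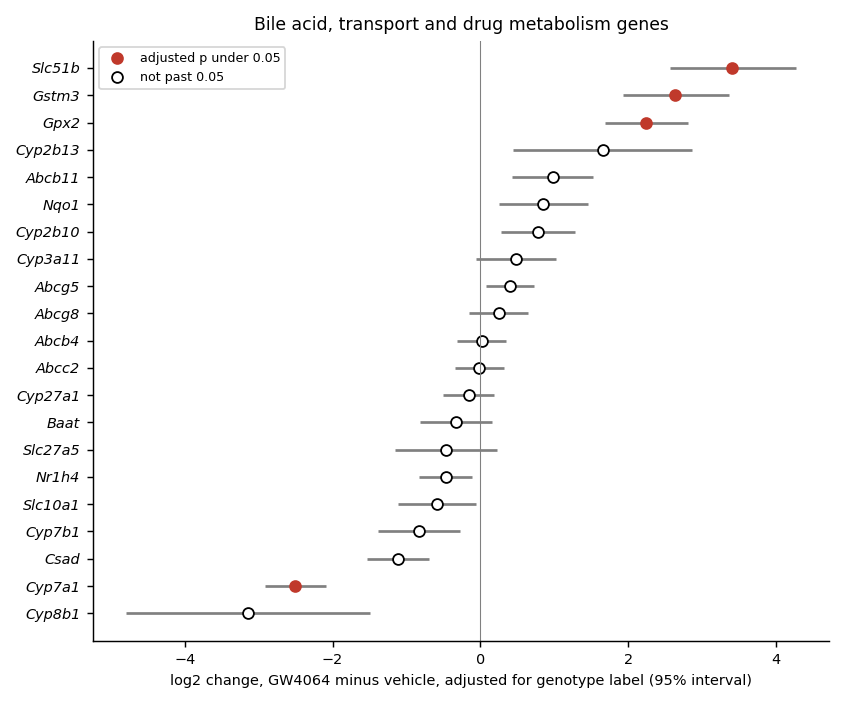
Log2 change with GW4064 against vehicle, adjusted for genotype label, with its 95% interval, for chosen genes of bile acid metabolism, transport and drug metabolism. Red points passed the threshold: Slc51b at 3.41, Gstm3 at 2.64 and Gpx2 at 2.24 on the right, and Cyp7a1 at -2.51 on the left. Cyp8b1 at -3.14 has the widest interval.

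Glutathione and other NRF2-related genes formed the list with the largest share of members apart as higher under both labels. Of 22 tested, 2 passed as higher (Gstm3 and Gpx2) and 0 as lower, and 3 had estimates below 0. Under both labels 13 (59.1%) were apart as higher and 0 as lower, against 6.92% and 7.37% of all genes. The median log2 change was 0.47, with 0.38 under Fxr-/- and 0.41 under Fxr+/+. Gsta1 read 780.6 and 649.3 on the Fxr-/- GW4064 arrays, 324.8 on the Fxr-/- vehicle array, 5179.8 and 3685.1 on the Fxr+/+ GW4064 arrays, and 2168.7 and 1522.9 on the Fxr+/+ vehicle arrays. Gstm2 read 26185.7 and 29374.4 on the Fxr-/- GW4064 arrays, 13390.7 on the Fxr-/- vehicle array, 7192.3 and 6189.1 on the Fxr+/+ GW4064 arrays, and 4112.5 and 4174.4 on the Fxr+/+ vehicle arrays. Gsta1 was lower and Gstm2 higher under Fxr-/- than under Fxr+/+, and in each the GW4064 arrays were the higher ones within a label. Their changes with GW4064 were 1.19 (adjusted p = 0.111) and 0.83 (adjusted p = 0.18). The quinone reductase Nqo1 had 0.85 (adjusted p = 0.447) and the glutathione synthesis subunits Gclm and Gclc had 0.35 and 0.088, while Txnrd1, Ephx1 and Hmox1 had 0.045, 0.034 and -0.058. Members of these transferase families are similar in sequence, and whether a probe binds more than 1 of them was not tested.

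Genes of cholesterol synthesis and uptake stood at the other end. Of 18 tested, 0 passed in either direction in limma, 10 had an unadjusted p under 0.05 and all of these were lower, and the smallest adjusted p was 0.323. Estimates were below 0 for 17 of 18, the exception being the regulator Srebf2 at 0.12. Under both labels 11 (61.1%) were apart as lower and 0 as higher, against 7.37% and 6.92% of all genes. The median log2 change was -0.43, with -0.35 under Fxr-/- and -0.38 under Fxr+/+. Sc5d, a desaturase late in the pathway, read 123.7 and 115.5 on the Fxr-/- GW4064 arrays, against 212.1 on the Fxr-/- vehicle array, and 223.1 and 194.0 on the Fxr+/+ GW4064 arrays, against 302.4 and 293.0 on the Fxr+/+ vehicle arrays. Its change was -0.59, and those of the isomerase Idi1, the reductase Hsd17b7 and the cholesterol carrier Stard4 were -0.70, -0.67 and -0.64. The list's median stayed between -0.49 and -0.34 in every alternative setting, and that of the NRF2 list between 0.36 and 0.50. Both lists were chosen with earlier results of these arrays known, so that their counts describe the arrays and are not independent evidence of a direction.

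**Figure D4:**
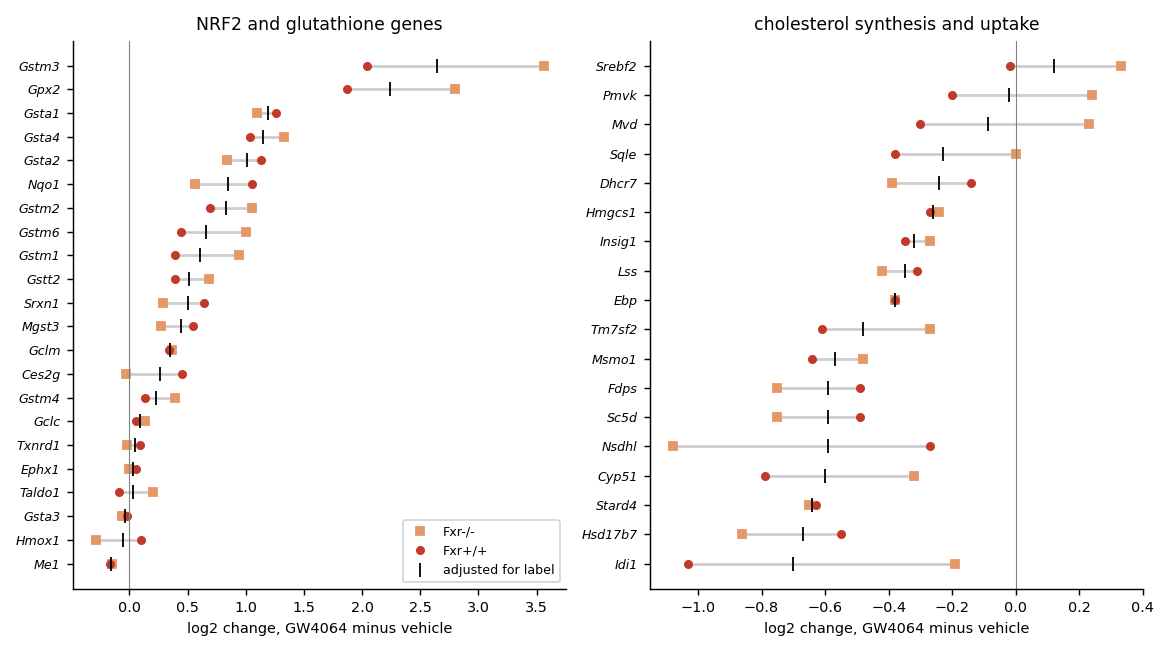
Log2 change with GW4064 against vehicle for tested members of the NRF2 and glutathione list (left, 22 genes) and the cholesterol synthesis and uptake list (right, 18 genes). Squares are Fxr-/-, circles Fxr+/+, and the black tick is the estimate adjusted for genotype label. Gstm3 and Gpx2 lie at the upper right of the left panel, and 17 of 18 ticks in the right panel lie below 0.

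Acute phase genes had 9 of 24 tested members (37.5%) apart as higher and 0 as lower under both labels, against 6.92% and 7.37% of all genes. In this list 0 passed the test and the median was 0.21. Lcn2, an iron-scavenging lipocalin made in inflamed liver, read 5628.7 and 4052.4 on the Fxr-/- GW4064 arrays, 1561.7 on the Fxr-/- vehicle array, 8113.8 and 8072.9 on the Fxr+/+ GW4064 arrays, and 3309.1 and 1240.7 on the Fxr+/+ vehicle arrays. Its change was 1.83 (limma adjusted p = 0.148), and the serum amyloid genes Saa1 and Saa2 had 0.72 and 0.60. Among CAR and PXR targets, 0 of 19 passed, and 5 (26.3%) were apart as higher and 0 as lower, against 6.92% and 7.37% of all genes. Of these CAR and PXR targets, 4 were apart in opposite directions under the labels, against 884 of 9766 over all genes. Cyp3a11 and Cyp2b10, the usual reporters of these xenobiotic receptors, had 0.48 (adjusted p = 0.687) and 0.78 (adjusted p = 0.394). Of 17 male-predominant liver genes, 0 passed, 5 (29.4%, against 7.37% of all genes) were apart as lower under both labels and 3 were apart in opposite directions, with a median of -0.37, made of -0.14 under Fxr-/- and -0.70 under Fxr+/+. Of 10 female-predominant genes, 0 passed, and the median was 0.22, made of -0.15 under Fxr-/- and 0.49 under Fxr+/+. Among them 1 (10%, against 6.92% of all genes) was apart as higher, 0 as lower and 4 in opposite directions. Of 12 growth hormone genes, 0 passed, 9 were below 0 and the median was -0.25. Under both labels 1 (8.33%) was apart as higher and 3 (25%) as lower, against 6.92% and 7.37% of all genes. In this list the feedback inhibitors Socs2 and Socs3 had -1.0 and 0.77, neither past the test. For fatty acid oxidation, 0 of 22 genes were apart in the same direction under both labels and the median was -0.15. Fatty acid and triglyceride synthesis (23 tested, median -0.032) had 0 calls, and 1 member (4.35%) was apart as higher and 2 (8.7%) as lower under both labels. Glucose metabolism (16 tested, median -0.09) had 0 calls, and 1 member (6.25%) was apart as higher and 3 (18.8%) as lower. The shares over all genes were 6.92% as higher and 7.37% as lower, near those of fatty acid and triglyceride synthesis. Cell cycle genes had a median of 0.25 and 5 of 22 apart as higher (22.7%, against 6.92% of all genes) and 6 apart in opposite directions, with label medians of -0.062 under Fxr-/- and 0.39 under Fxr+/+.

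**Figure D5:**
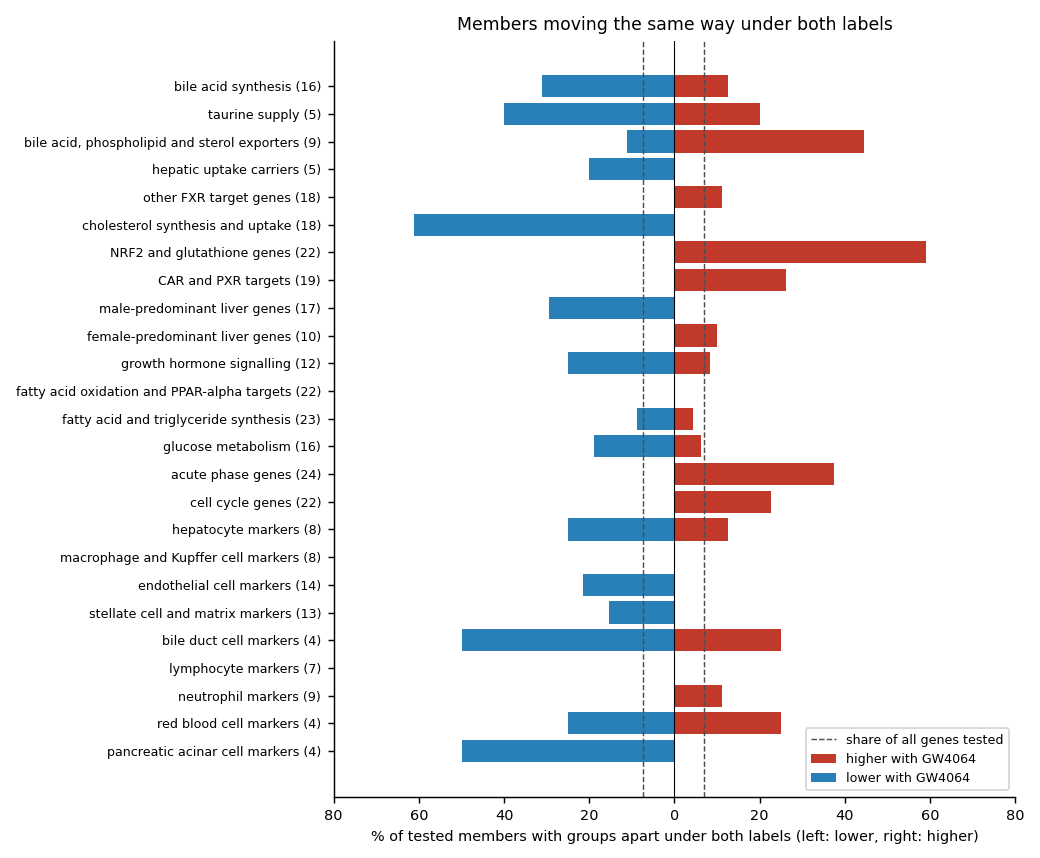
Percent of the tested members of each gene list (number tested in parentheses) whose GW4064 arrays lay apart from the vehicle arrays in the same direction under both labels, lower to the left and higher to the right. Dashed lines are the shares among all genes tested, 7.37% and 6.92%. The longest bars with over 10 genes are cholesterol synthesis and uptake at 61.1% lower and NRF2 and glutathione genes at 59.1% higher.

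The labels share no array, so that genes chosen under a label could be read in the other. Of the 100 largest rises under Fxr+/+ among genes whose groups were apart, 75 were above 0 under Fxr-/- and 63 had their Fxr-/- arrays apart in the same direction, with a median log2 change there of 0.62. Among all genes tested, 51.4% were above 0 and 34.8% apart as higher under Fxr-/-. Of the 100 largest falls, 66 were below 0 and 48 apart as lower under Fxr-/- (median -0.21), against 48.6% and 32.9% of all genes. In the reverse choice, 66 of the 100 largest rises under Fxr-/- were above 0 and 40 apart as higher under Fxr+/+ (median 0.14), against 48.6% and 15.7% of all genes, and 63 of the 100 largest falls were below 0 and 28 apart as lower (median -0.15), against 51.3% and 17.6%. The shares were thus above those of all genes in each of the 4 choices. Over the 9766 genes the changes under the labels had a Pearson correlation of 0.169 and a Spearman correlation of 0.094, across genes, which are not independent replicates.

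The 2 lists of 100 rises had 25 genes in common and those of 100 falls 14, where each list holds 1.02% of the genes tested. These overlaps include dim genes. All signals of Slc37a1, Strada and Erc1 lay within the range of the background, as did the Fxr+/+ signals of Hkdc1, Rundc3b and Dupd1. The shared rises included the 6 genes that passed, and the shared falls included Cyp7a1 and Cyp8b1. Outside the genes already named, the shared rises held Acot5, a peroxisomal acyl-CoA thioesterase, whose Fxr+/+ signals all lay within the range of the background. It read 248.0 and 655.1 on the Fxr-/- GW4064 arrays, 46.4 on the Fxr-/- vehicle array, 24.8 and 7.0 on the Fxr+/+ GW4064 arrays, and -4.6 and -2.5 on the Fxr+/+ vehicle arrays. The shared rises also held Paxx, a DNA repair factor (1.46 adjusted for label), and the tubulin Tubb2b (1.24). Further members were the growth factor receptor Fgfr2 (1.16) and the female-predominant repressor Cux2 (1.18). The Fxr+/+ vehicle signals of Fgfr2 and Cux2 lay within the range of the background, so that their fitted changes depend on the offset. Under Fxr+/+ the geometric mean with GW4064 was at least 1.34-fold higher for Fgfr2 and at least 1.04-fold higher for Cux2. The shared falls held Nrep, which read 563.8 and 728.2 on the Fxr-/- GW4064 arrays, 2616.1 on the Fxr-/- vehicle array, 243.1 and 433.3 on the Fxr+/+ GW4064 arrays, and 590.7 and 1190.7 on the Fxr+/+ vehicle arrays. They further held the liver metabolic genes Sult2a8 (-1.19), Ces3b (-1.26), Keg1 (-1.42) and Dio1, the thyroid hormone deiodinase (-1.05). None of Acot5, Paxx, Tubb2b, Fgfr2, Cux2, Nrep, Sult2a8, Ces3b, Keg1 and Dio1 passed the test, with adjusted p from 0.121 to 0.561.

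In bulk liver, fewer cells of a type and less RNA per cell cannot be told apart. Summed hepatocyte marker signals were 147398 and 126446 on the Fxr-/- GW4064 arrays, 151795 on the Fxr-/- vehicle array, 147816 and 151658 on the Fxr+/+ GW4064 arrays, and 149048 and 135707 on the Fxr+/+ vehicle arrays, with overlapping groups under Fxr+/+ and lower sums with GW4064 under Fxr-/-. The array Fxr-/- GW4064 replicate 2 had the lowest sum of hepatocyte, endothelial and macrophage markers. Of 14 endothelial markers 13 had estimates below 0, against 4818 of 9766 genes tested. Their median was -0.37, made of -0.71 under Fxr-/- and -0.14 under Fxr+/+. Under both labels 3 (21.4%) were apart as lower and 0 as higher, against 7.37% and 6.92% of all genes. The median of these markers was -0.14 without the Fxr-/- vehicle array and -0.2 without Fxr-/- GW4064 replicate 2. Their summed signal was 5370 and 3279 on the Fxr-/- GW4064 arrays, 6851 on the Fxr-/- vehicle array, 5704 and 6098 on the Fxr+/+ GW4064 arrays, and 6527 and 6227 on the Fxr+/+ vehicle arrays, so that it was lower with GW4064 under each label. Neutrophil markers summed to 372 and 304 on the Fxr-/- GW4064 arrays, 1036 on the Fxr-/- vehicle array, 3521 and 3665 on the Fxr+/+ GW4064 arrays, and 3664 and 1500 on the Fxr+/+ vehicle arrays. This list's median was -0.057, made of opposite medians of -0.57 under Fxr-/- and 0.41 under Fxr+/+. Of 4 tested pancreatic acinar markers, 4 were below 0, with sums of 1237 and 870 on the Fxr-/- GW4064 arrays, 1784 on the Fxr-/- vehicle array, 890 and 882 on the Fxr+/+ GW4064 arrays, and 962 and 894 on the Fxr+/+ vehicle arrays, and they include Cela2a. No marker gene of any cell type passed the test. The part of these cell types in the changes of the acute phase genes and of Cela2a was not tested.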

How the data were processed

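Per the labels' protocols, biotin-labelled cRNA from pooled liver RNA was hybridised to Illumina bead arrays. The authors deposited 1 table of intensity values for 25697 probes and 8 arrays. Of each used column, 31.5% to 31.6% of the values were below 0, and once sorted the 7 columns agreed to within 0.5, so that they were already background-subtracted and quantile normalized. Which software did this is not stated in the sources used here. The column of Fxr-/- vehicle replicate 2 holds other values of unknown unit and was left out (1 column), so that the Fxr-/- vehicle group rests on 1 array, assumed to vary like the others. No count or depth exists for arrays, and their number limits the precision.

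Signals were converted as log2(max(signal, 0) + 16). Probes above their array's median on at least 2 of the 7 arrays were kept (14041), and the brightest named one was taken for each gene, which gave 9766 of 16593 genes on the array. Names came from the platform annotation, in which 23978 probes had 1 symbol, 0 several and 1719 none. Values reached down to 39.5 below 0, and a group whose signals were all under 39.5 was taken as within the range of the background. The "at least" folds set the geometric mean of the other group, with signals under 39.5 raised to 39.5, against 39.5. They are therefore bounds on a mean, and a single array can lie nearer to 39.5.

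limma 3.58.1 (R 4.3.3) fitted genotype label and treatment as additive terms, with 4 residual and 4.24 prior degrees of freedom. A cell-means fit with 3 residual degrees of freedom gave the effects within a label and their difference. P-values were two-sided, adjusted by the Benjamini-Hochberg method over all genes tested, and called under 0.05. The fits were tested on simulated data. Named genes were a fixed set of bile acid, transport and drug metabolism genes, all genes moving alike, called list members and the 5 smallest p-values of the difference. Members, lists and rules were chosen with earlier results of these data known. Figures were drawn with matplotlib 3.10.9.

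Replicates 1 and 2 share numbers across groups in the labels. The deviations of same-numbered arrays from their group means correlated at 0.24, 0.377 and 0.233 in the 3 pairs of groups, and the replicate number was therefore also fitted as a block. The labels do not say what a number stands for. The alternatives were the offset, an added quantile normalization, median centring, the filter, the choice of probe, trend, robust and weighted fits, the replicate block, equal weights on the labels and leaving out arrays.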

Additional observations from a re-analysis of the deposited data

Results flagged for a closer look

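In 3 of the named genes the GW4064 arrays lay apart from the vehicle arrays in opposite directions under the genotype labels. The difference itself (Fxr-/- effect minus Fxr+/+ effect) was tested in limma and did not pass in any of them. Cyp27a1, the sterol 27-hydroxylase, had a difference of 0.40 on the log2 scale (adjusted p = 0.932), from 0.081 under Fxr-/- and -0.32 under Fxr+/+. Its other kept probes gave -0.016 and 0.041 under Fxr-/- and -0.26 and -0.22 under Fxr+/+. Cyp2b13, a female-predominant cytochrome P450, had a difference of -2.97 (adjusted p = 0.305): it read 100.2 and 85.2 on the Fxr-/- GW4064 arrays, 101.9 on the Fxr-/- vehicle array, 502.4 and 368.8 on the Fxr+/+ GW4064 arrays, and 47.9 and 44.5 on the Fxr+/+ vehicle arrays. Cyp2b9, its near relative, had a difference of -3.94 (adjusted p = 0.305): it read 839.2 and 443.3 on the Fxr-/- GW4064 arrays, 2257.5 on the Fxr-/- vehicle array, 2573.2 and 1813.1 on the Fxr+/+ GW4064 arrays, and 564.8 and 436.9 on the Fxr+/+ vehicle arrays. Probes of these cytochrome P450 relatives may bind more than 1 member, which was not tested. Over all genes, 884 of 9766 were apart in opposite directions under the labels.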

How the results depend on the processing

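The 7 called genes kept their direction in every alternative that tested them. The stricter filter, above the median on all 7 arrays, tested 4 of them and left out Amn, Gpx2 and Gstm3. The count of genes higher with GW4064, and of those moving alike, was 6, and became 0 with an offset of 1 or with no filter, 12 with an offset of 100, where Wfdc3 was lost, and 19 with a mean-variance trend. The count of genes lower, and of those moving alike, was 1, and became 0 with an offset of 1 or no filter, 3 with an offset of 100 or equal weights on the labels, 2 with all probes and 5 with the trend. Leaving out each array gave 0 to 4 genes higher and 0 to 1 lower; the array Fxr-/- vehicle replicate 1 was left out as an alternative chosen after seeing the data and gave 1 higher. The difference between labels passed in 0 genes, in 5 with an offset of 1 and in 324 with no filter. The calls within Fxr-/- were 7, and became 42 (offset 1), 379 (no filter), 4 (stricter filter), 2 (all probes, mean of probes or array weights), 14 (trend), 3 (replicate block), 0 (only the 3 Fxr-/- arrays) and 1 to 3 (arrays left out). Those within Fxr+/+ were 2, and became 0 (offset 1), 5 (no filter or replicate block), 1 (all probes), 6 (trend), 0 (only the 4 Fxr+/+ arrays) and 0 to 1 (arrays left out). With the replicate block, 5 genes were higher and 1 lower: of the 7 calls those of Slc51b and Gstm3 were lost and no other, and Gsta1 passed. Of the other named genes, 4 turned in sign. Over the arrays left out, Abcc2 ranged from -0.095 to 0.074 (0.0078 with the replicate block), Abcb4 from -0.053 (without Fxr+/+ vehicle replicate 2) to 0.085, Cyp2b9 from -0.012 (without Fxr+/+ GW4064 replicate 1) to 2.09 and Synm from -0.091 (without Fxr-/- vehicle replicate 1) to 1.64. Apart from fewer arrays, which remove degrees of freedom, the cause of these shifts was not tested. Dim genes are limited by signal over background.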
